A study of Mus musculus with 2 samples.

Results

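The genes described here encode the pore-forming and auxiliary subunits of voltage-gated calcium channels, voltage-gated sodium channels and hyperpolarization-activated (HCN) channels, followed in the cells of the mouse preoptic area. Members were all gene symbols starting with Cacna, Cacnb, Cacng, Scn or Hcn and a digit that had at least 20 UMIs (unique molecular identifiers, each standing for 1 captured RNA molecule) over both libraries. Of 44 such symbols, 42 were members, out of 31054 genes listed and 17866 genes that reached the same number of UMIs. The calcium channel alpha1 (pore) family gave 9 of 10 symbols and the sodium channel alpha (pore) family 9 of 10. All 4 alpha2delta, 4 beta and 8 gamma subunit genes of calcium channels, all 4 beta subunit genes of sodium channels and all 4 Hcn genes were members. The calcium channel gene Cacna1f, with 19 UMIs, lay just outside the limit, and the muscle sodium channel gene Scn4a had 1 UMI. Just inside it were Scn10a with 34 UMIs, Cacng6 with 36 and Cacng1 with 49.

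The study compared preoptic tissue of wild-type C57BL/6J mice, 9 to 10 weeks old, after 6 h of sleep deprivation (SD) and after 6 h of sleep deprivation followed by 2 h of recovery sleep (SD+RS), to find neurons active in rebound sleep. Each group was 1 single-cell library of pooled males and females, made with Act-seq, in which tissue is dissociated with transcription blocked. How many mice went into a pool is not stated in the labels. Both groups were deprived of sleep first, and no undeprived group is part of the comparison. With 1 library per group the spread between mice is unknown, so the libraries are compared without a test.

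Calcium channels let calcium into a depolarized cell and so couple firing to transmitter release, gene transcription and, through the low-threshold T-type channels, to burst firing. Their alpha2delta subunits carry the channels to the membrane, and some of them bind the drug gabapentin, beta subunits support folding and gating, and most gamma genes encode chaperones of AMPA-type glutamate receptors. Sodium channels start and carry the action potential, with beta subunits that set their gating and anchor them at the axon. HCN channels open on hyperpolarization, depolarize the resting membrane and shape pacemaking. Bursting through T-type and HCN channels is best known from the thalamus, where it accompanies slow-wave sleep.

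The members that differed most between neuron types encode alpha2delta subunits, so the promoters of Cacna2d1 and Cacna2d3 are shown first. Each is the run of 250 bases just upstream of the RefSeq start (build GRCm38.p6, the mm10 assembly), read on the gene's own strand, with capitals on each GC box, the letters GGGCGG or their reverse complement. Cacna2d1 lies on the plus strand and its window is chr5:15934441-15934690. Cacna2d3 lies on the minus strand and its window is chr14:29721865-29722114.
Cacna2d1: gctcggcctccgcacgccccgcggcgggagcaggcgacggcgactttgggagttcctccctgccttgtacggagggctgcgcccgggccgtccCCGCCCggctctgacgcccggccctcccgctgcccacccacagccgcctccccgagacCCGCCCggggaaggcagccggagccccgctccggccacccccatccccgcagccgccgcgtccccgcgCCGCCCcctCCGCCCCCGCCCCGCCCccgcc
Cacna2d3: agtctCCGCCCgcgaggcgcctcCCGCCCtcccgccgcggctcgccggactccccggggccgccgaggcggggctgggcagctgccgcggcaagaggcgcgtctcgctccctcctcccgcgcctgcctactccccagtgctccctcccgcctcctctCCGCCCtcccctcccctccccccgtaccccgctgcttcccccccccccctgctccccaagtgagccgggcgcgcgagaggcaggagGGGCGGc
Both windows were rich in CG pairs, with 36 in Cacna2d1 and 30 in Cacna2d3, against a median of 6.0 over the 27025 windows of all genes and 9.0 over the 30 members with a window, which ranged from 0 to 37. They held 6 and 4 GC boxes. The window of Cacna2d2, chr9:107399630-107399879, had 34 CG pairs and 1 GC box, and it is not printed because it lies inside the first exon of Cacna2d2 in the GENCODE annotation. Windows of other members, such as Cacna1d, Cacna1e, Cacnb1 and Cacnb4, also lie inside their gene as annotated by GENCODE. Counts over the members' windows include these. The letters GGGCGG were found on either strand in 32.9% of all windows and in 13 of the 30 members' windows (43.3%). The letters TATAAA were in 13% of all windows and in 1 member window, that of the L-type channel gene Cacna1d. The letters CCAAT were in 34.5% of all windows and in 7 of the members' windows. Such a match describes the letters and is no evidence of a bound site. Among the members with no window in the table were Cacna2d4, Scn3b, Hcn3, Cacna1g, Cacng1, Cacna1h, Cacng4, Scn3a and Cacna1a.

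The SD library held 10262 barcodes and 132191585 UMIs, and the SD+RS library 8106 barcodes and 123500649 UMIs. After filters and removal of doublets, 9295 and 7412 cells remained, and the libraries shared 23 barcodes. Neurons numbered 3740 and 4253 cells at a median of 22066 and 21221 UMIs per cell. The other described classes held from 122 to 2050 cells per library, at far fewer UMIs per cell. Among neurons with a sex call, those with Xist UMIs only made up 38.8% of the SD and 77.3% of the SD+RS library, so the sexes were mixed differently. An unnamed cluster at low depth, in which neuron markers were found, held 556 SD cells (5.98%) and 65 SD+RS cells (0.877%). Levels are CPM, the UMIs of a gene on a per-million scale of all UMIs of its class or cluster, with exact 95% Poisson intervals, and every interval covers counting error only. They are not scaled to transcript length, so levels are compared within a gene and not between genes.

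Most members were neuronal, and a few were highest in glia or in vessel cells. Of 38 members with enough UMIs, 24 were highest in neurons in both libraries, and 14 were at least 2-fold above every other described class in neurons in both, as 8.66% of all genes tested were. With doublets kept and cells clustered again, 3 members met that rule in place of 14. Among the 14 were Scn2a, Scn2b, Scn3b, Scn7a, Scn9a and Scn11a of the sodium channels, Cacna1b, Cacna1i, Cacng2 and Cacng3 of the calcium channels, and Hcn3. The same class was the top class in both libraries for 36 of the 38 members. The plot of levels by class shows 39 members in each library.

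**Figure D1:**
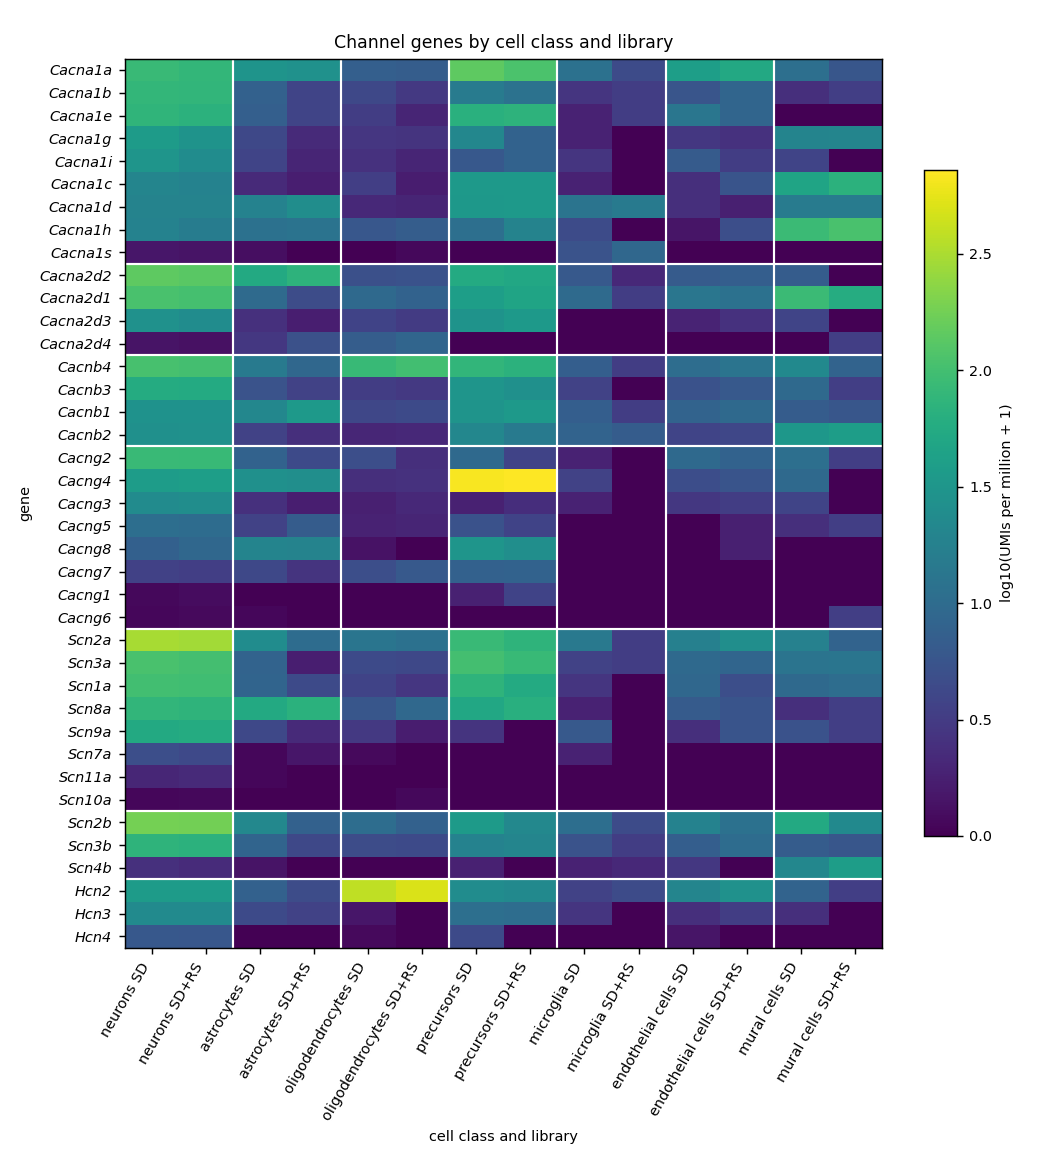
Levels of 39 members (CPM, on a log scale) in the 7 described cell classes, with the SD and the SD+RS library side by side. Hcn2 in oligodendrocytes (382 and 503) and Cacng4 in oligodendrocyte precursors (672 and 722) stand above the neuron levels of the same genes.

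Among the sodium channel genes, Scn2a, the main sodium channel pore of unmyelinated and immature axons, was at 306 CPM in neurons of the SD library and 290 in those of the SD+RS library. Scn2b, which encodes a beta subunit, was at 182 and 176 CPM. Scn3a was at 109 and 100.4 CPM, Scn1a, the pore gene of fast-spiking interneurons that is mutated in Dravet syndrome, at 96.7 and 95.2, and Scn8a, a pore of the axon initial segment, at 74.5 and 70.8. Scn4b, Scn11a and Scn10a were near the limit of detection in neurons, with levels of 1.47 and 1.22 CPM for Scn4b and under 1.2 CPM for the other two.

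Among calcium channel genes, the alpha2delta gene Cacna2d2 was at 139.8 and 134 CPM in neurons and Cacna2d1 at 108 and 102. Cacnb4, a beta subunit gene whose loss gives the lethargic mouse, was at 106 and 101 CPM. Cacna1a, the P/Q-type pore of fast transmitter release, was at 86.1 and 77.3 CPM, Cacna1b, the N-type pore, at 78.2 and 75.8, and Cacng2, which encodes stargazin, at 85.6 and 84.3. The T-type pores Cacna1g, Cacna1i and Cacna1h were at 36.5 and 28.6, at 29.96 and 23.8, and at 17.5 and 14.9 CPM. Of the HCN genes, Hcn2 was at 36.2 and 36.1, Hcn3 at 22.3 and 22.5 and Hcn4, the pacemaker channel gene of the heart, at 5.13 and 5.04. The plot of levels in neurons gives 39 members.

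**Figure D2:**
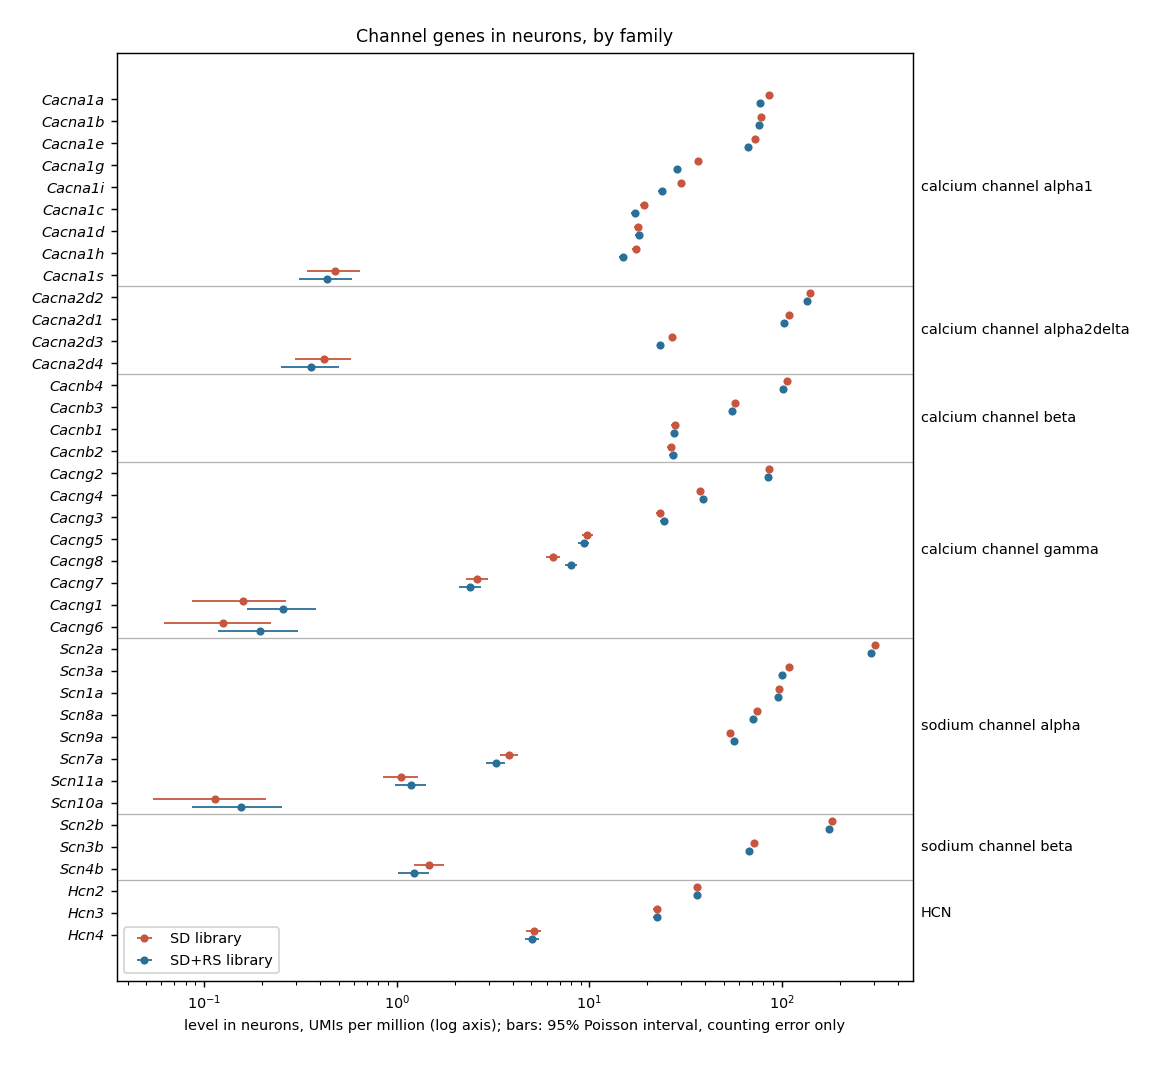
Levels of 39 members in neurons (CPM, on a log scale, with exact 95% Poisson intervals) in the SD and the SD+RS library, grouped by family. The points of the libraries lie close together, as for Scn2a at 306 and 290 and Hcn2 at 36.2 and 36.1.

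Hcn2 was a gene of oligodendrocytes, the myelin-forming cells, more than of neurons in this tissue. Hcn2, on chromosome 10 from 79716634 to 79736108 in mm10, reached 382 CPM (370 to 394, 4011 UMIs) in SD oligodendrocytes and 503 (487 to 520, 3545 UMIs) in SD+RS oligodendrocytes. That was 1056% and 1394% of its level in neurons. It was found in 79.8% and 87.7% of these cells, against a median depth of 6562 UMIs in the SD library. The log2 ratio of SD+RS over SD was 0.40 (0.33 to 0.46), short of the 1.5-fold used as a call. An unnamed cluster of 179 and 99 cells, led by Klk6, S100b and Enpp6, had still more Hcn2, at 597 and 709 CPM. Hcn3, in contrast, was at least 2-fold above every other class in neurons. Neuronal RNA that is free in the suspension can reach other cells, and 8 neuron genes stood at a median of 3.04% and 3.33% of their neuron level in oligodendrocytes, with Stmn4 at 782% and 1023%. The neuron gene Stmn4 aside, the Hcn2 level was far over that background.

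Further members of the oligodendrocyte lineage were Cacnb4, Cacna2d4 and Cacng4. Cacnb4 was at 83.5 and 98.2 CPM in oligodendrocytes, 78.7% and 96.9% of its neuron level. It was at 145 (115 UMIs) and 163.5 CPM (125 UMIs) in a small unnamed cluster led by Gpr17, Enpp6 and Sirt2, genes of newly forming oligodendrocytes. Cacna2d4, an alpha2delta gene known from the retina, had 63 and 53 UMIs in oligodendrocytes (6.00 and 7.52 CPM), 1432% and 2088% of its neuron level. Cacng4, on chromosome 11 from 107732357 to 107794557, was at 672 CPM (626 to 721, 797 UMIs) and 722 CPM (662 to 787, 525 UMIs) in oligodendrocyte precursors, the dividing progenitors of this lineage. Those levels were 1792% and 1855% of the level in neurons, and the gene was found in 90.8% and 95.4% of precursors. In oligodendrocytes Cacng4 was at 1.43 and 1.56 CPM, so the precursors and the mature cells lay far apart.

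Oligodendrocyte precursors, the top class of Cacng8 and Cacna2d3 in both libraries, also held pore genes, some of them above the neuron level. Cacna1a was at 140 CPM (120 to 163) and 110 CPM (87.3 to 137) in them, 163% and 142% of its neuron level. Scn3a, a sodium channel pore of developing neurons, was at 101 and 83.9 CPM, 92.6% and 83.6% of its neuron level. The L-type pores Cacna1c (33.7 and 34.4 CPM) and Cacna1d (32.9 and 34.4) were above their neuron levels of 19.3 and 17.3 and of 17.98 and 18.2, on 25 to 40 UMIs per library. The neuron genes stood at a median of 14.4% and 14.9% of their neuron level in precursors, the highest of the 6 other described classes. The highest of these neuron genes stood at 98.6% and 111.7% there, above Scn3a in each library.

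In astrocytes, which buffer potassium and glutamate around synapses, Cacna2d2 was at 54.2 and 70.4 CPM. Scn8a was at 53.0 and 66.3 CPM in them, 71.2% and 93.7% of its neuron level, where the neuron genes stood at a median of 5.82% and 3.40%. Cacng8, a chaperone of AMPA receptors, was higher in astrocytes (18.3 and 18.1 CPM, 136 and 75 UMIs) than in neurons (6.50 and 8.01 CPM). The top class of Cacng8 was the oligodendrocyte precursors in each library. In endothelial cells Cacna1a was at 38.6 and 51.9 CPM, 44.8% and 67.1% of its neuron level, against 5.30% and 6.14% for the neuron genes. Mural cells, the contractile cells of the vessel wall, had Cacna1h at 87.5 and 108 CPM on 61 and 45 UMIs, together with Cacna2d1 at 88.9 and 57.6, Cacna1c at 45.9 and 67.2, Cacnb2 at 31.6 and 38.4 and Scn4b at 20.1 and 38.4. The neuron levels of Cacna1h and Scn4b were 17.5 and 14.9 and 1.47 and 1.22 CPM, so mural cells were the top class of both in each library. The mural levels rest on few UMIs, with 70 and 33 over all 4 sodium channel beta genes together, Scn4b among them.

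Between sleep deprivation and recovery sleep, the level of these genes in neurons taken as 1 class differed little. All 42 members summed to 2360 CPM (2350 to 2370) in SD neurons and 2261 CPM (2251 to 2270) in SD+RS neurons, a log2 ratio of −0.06 (−0.07 to −0.05). The alpha1 family summed to 359 and 323 CPM (log2 ratio −0.15, −0.17 to −0.13) and the alpha2delta family to 275.5 and 259.9, at −0.08. The gamma family, at 165.5 and 168 CPM, had an interval that included 0. Of 37 members with at least 50 UMIs in each library, 0 were past 1.5-fold in either direction, where 0.726% of all 13766 genes tested were past it upward and 1.42% downward. The interval lay above 0 for Cacng8 and Scn9a (5.41% of the 37) and below 0 for 17 members (45.9%), where it lay above 0 for 22.5% and below 0 for 28.2% of all genes tested. The median log2 ratio was −0.06 over the members and −0.02 over all genes tested.

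The T-type pore genes were among the members with the lowest ratios in neurons. Cacna1g had 3221 UMIs in SD neurons and 2776 in SD+RS neurons, 36.5 and 28.6 CPM, a log2 ratio of −0.35 (−0.43 to −0.28). Cacna1i was at −0.33 (−0.42 to −0.25) and Cacna1h at −0.23 (−0.34 to −0.13), with the beta subunit gene Scn4b between these at −0.27. The T-type ratios were small, none of them past the 1.5-fold call, and 4.59%, 5.14% and 10.7% of all genes tested lay at or below them. Among neuron clusters described below, the ratio was under 0 in 25 of 28 for Cacna1g, in 26 of 30 for Cacna1i and in 18 of 24 for Cacna1h. As large a share of clusters under 0 was found in 3.20%, 4.70% and 13.8% of the 8511 genes tested in at least 20 clusters. Other members had it too, such as Cacna1a with 26 of 30 and Scn3a with 23 of 30. In neurons with Y-linked UMIs only, the ratio of Cacna1g was −0.20, and in those with Xist UMIs only that of Cacna1h was −0.12.

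The highest ratio in neurons was that of Cacng8, at 6.50 and 8.01 CPM, or 0.30 (0.14 to 0.46) as log2, with 4.69% of genes at or above it. In neurons with Y-linked UMIs only it was 0.04. Scn9a, the sodium channel pore known from pain-sensing neurons, was at 54.0 and 56.5 CPM, a ratio of 0.06 (0.01 to 0.12). Some measures of other RNA in the same neurons moved as well. The 6 oligodendrocyte markers summed to 104 CPM in SD neurons and 74.4 in SD+RS neurons (−0.48). The 5 endothelial markers had a ratio of −1.12 and the 7 mural markers −0.75. The sum of the 6 astrocyte markers was at 0.01, though 5 of the 6 were lower in SD+RS neurons. The 6 oligodendrocyte precursor markers summed to a ratio of −0.06, with all 6 lower. Among RNAs kept in the nucleus, Malat1 was at 0.04, Meg3 at −0.04, Miat at −0.19 and Mirg at −0.51. The part of these in the small ratios of the members was not tested.

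**Figure D3:**
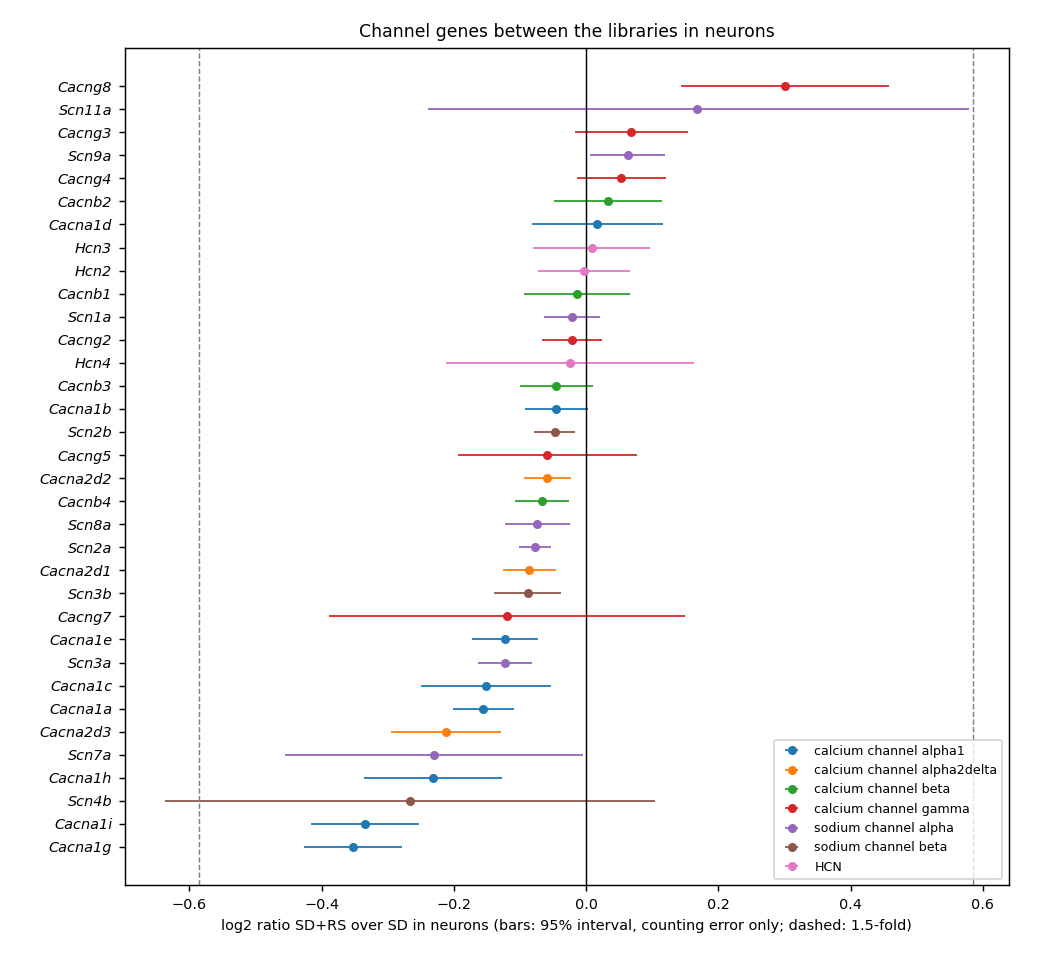
Log2 ratio of SD+RS over SD in neurons for 34 of the members with at least 50 UMIs in each library, with exact 95% intervals that cover counting error only, and dashed lines at the 1.5-fold call. None of those shown reaches the lines, with Cacna1g lowest at −0.35 and Cacng8 highest at 0.30.

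The partners of these channels passed no call in neurons either. Of 43 genes that anchor, modify or respond to the channels, 41 had enough UMIs in neurons. Of these 0 were past 1.5-fold, where 0.726% of all genes tested were past it upward and 1.42% downward. The interval lay above 0 for 24.4% of the partners and below 0 for 43.9%, where it did so for 22.5% and 28.2% of all genes tested. Rrad, a small GTPase that binds calcium channel beta subunits and lowers the current, was at 21.1 and 16.9 CPM (−0.33), and Rem2, of the same GTPase family, at 5.53 and 7.02 (0.34). Fgf14, whose protein binds sodium channels at the axon initial segment, was at 0.12 and Camk2a at −0.24.

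In the other classes 3 of the pairs of member and class with at least 50 UMIs in each library passed the 1.5-fold call. In astrocytes, 1 of 8 members tested was higher, where 2.93% of all genes were, and 1 was lower, where 3.12% were. Cacnb1, a beta subunit gene, had 149 and 137 UMIs there and rose from 19.996 to 33.1 CPM, a log2 ratio of 0.73 (0.38 to 1.07). In oligodendrocytes, 1 of 5 was higher (3.22% of all genes) and 0 lower (2.29%). It was Scn8a, from 4.86 to 8.23 CPM on 51 and 58 UMIs (0.76, 0.19 to 1.33). In oligodendrocyte precursors 0 of 6 passed in either direction, in microglia 0 of 1 and in endothelial cells 0 of 1, and no member of mural cells had enough UMIs (0 of 0). The shares of all genes were 2.78% and 1.22% in precursors, 3% and 1.95% in microglia, 4.38% and 2.67% in endothelial cells, and 5.35% and 3.08% in mural cells, upward and downward.

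Neuron types differed by far more than the libraries did. Neurons were clustered without the members, so that these genes define no cluster, and 30 of 40 clusters had at least 50 cells in each library. They are called by their leading genes, and the highest and lowest cluster of a gene are those by the mean of both libraries unless a library is named. Of 34 members with at least 500 UMIs in neurons, 9 spanned at least 10-fold from the lowest to the highest cluster, where 11.4% of all genes did. The median span was 4.54-fold over the members and 2.30-fold over all genes. The cluster levels in the libraries had a median Pearson correlation of 0.91 over the members and 0.64 over all genes, across 30 clusters that share depth and composition between the libraries, and for 26 members it was over 0.8. The heat map of cluster levels shows the members with the most UMIs.

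**Figure D4:**
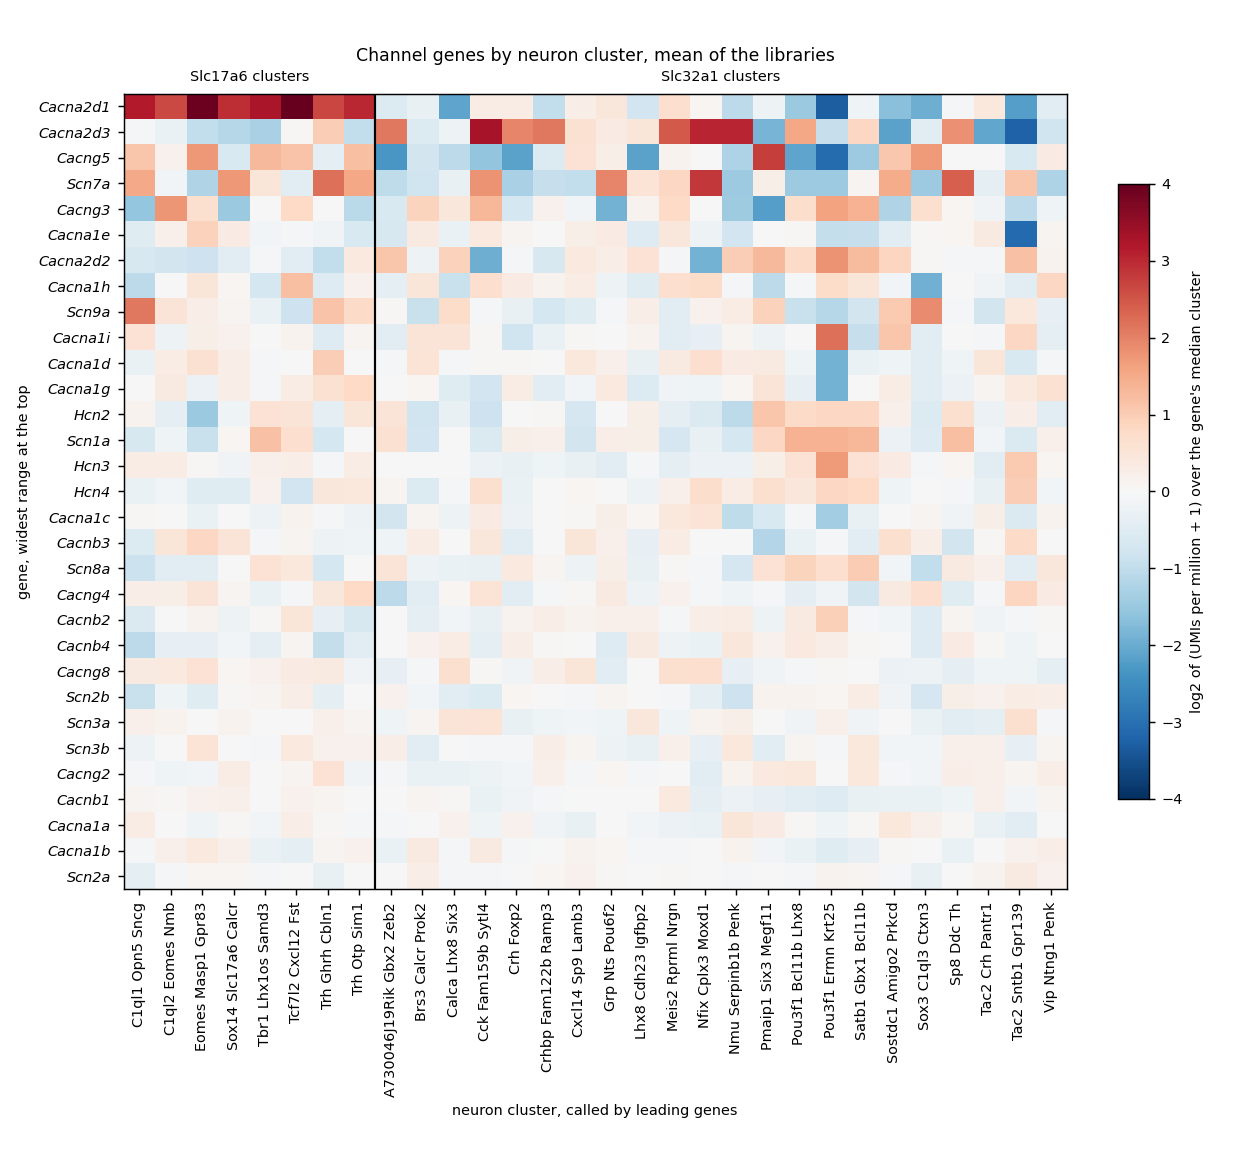
Levels of 31 of the members with at least 500 UMIs in neurons (rows) in the 30 described neuron clusters (columns), as log2 of the mean level over both libraries (CPM + 1) relative to the median cluster of the same gene. Cacna2d1 is high in the Slc17a6 clusters and low in most Slc32a1 clusters, while Scn2a, with a 1.63-fold span, is nearly even.

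Of the members, the alpha2delta genes Cacna2d1 and Cacna2d3 had the widest ranges over neuron clusters. Cacna2d1, on chromosome 5 from 15934691 to 16374511, was at 690 CPM (1327 UMIs) and 698 CPM (818 UMIs) in the cluster led by Tcf7l2, Cxcl12 and Fst and at 2.02 and 2.48 CPM (2 and 3 UMIs) in the cluster led by Pou3f1, Ermn and Krt25, a 305-fold span (130 to 939). Cacna2d2 had the opposite top, at 387 and 408 CPM in the Pou3f1 Ermn Krt25 cluster, and its lowest level, 28.4 and 28.5 CPM, in the cluster led by Cck, Fam159b and Sytl4, a 14.0-fold span (11.1 to 17.9). Cacna2d3, on chromosome 14 from 28904943 to 29721864, had its highest level in that same Cck Fam159b Sytl4 cluster, at 117 and 133 CPM. Each of these subunits therefore had a different top cluster. Cacna2d3 was also high in the clusters led by Nfix, Cplx3 and Moxd1 (117 and 91.3 CPM) and by Nmu, Serpinb1b and Penk (112 and 96.3), and lowest in the Gal Tac2 Cartpt cluster described below, with 2 and 0 UMIs. The UMIs pooled over both libraries gave a ratio of 327 with a wide counting interval (89.9 to 2713). Over the 30 clusters, the levels of Cacna2d1 and Cacna2d2 had a Spearman correlation of −0.62 (SD) and −0.61 (SD+RS). Within the 22 clusters with Slc32a1 it was −0.52 and −0.48, and within the 8 with Slc17a6 it was 0.19 and 0.24.

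The split of Cacna2d1 followed the transmitter of the cluster. Slc32a1, the vesicular GABA transporter, was at least 4 times the vesicular glutamate transporter Slc17a6 in 22 described clusters, and Slc17a6 was at least 4 times Slc32a1 in 8. In the SD library the 8 Slc17a6 clusters lay between 177 and 690 CPM of Cacna2d1, and the 22 Slc32a1 clusters between 2.02 and 58.3. In the SD+RS library they lay between 199 and 698 and between 2.48 and 50.6. The groups thus did not overlap in either library, which 0.0261% of the 11493 genes tested showed (3 genes) in that direction, and Cacna2d1 was the 1 member among them. No member had every Slc17a6 cluster below every Slc32a1 cluster, as 0.0783% of all genes did. Slc17a6 clusters other than the top were Eomes Masp1 Gpr83 (472 and 493 CPM), Tbr1 Lhx1os Samd3 (325 and 287) and C1ql2 Eomes Nmb (177 and 221). Among the Slc32a1 clusters the highest were Cck Fam159b Sytl4 in the SD library and Tac2 Crh Pantr1 in the SD+RS library.

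**Figure D5:**
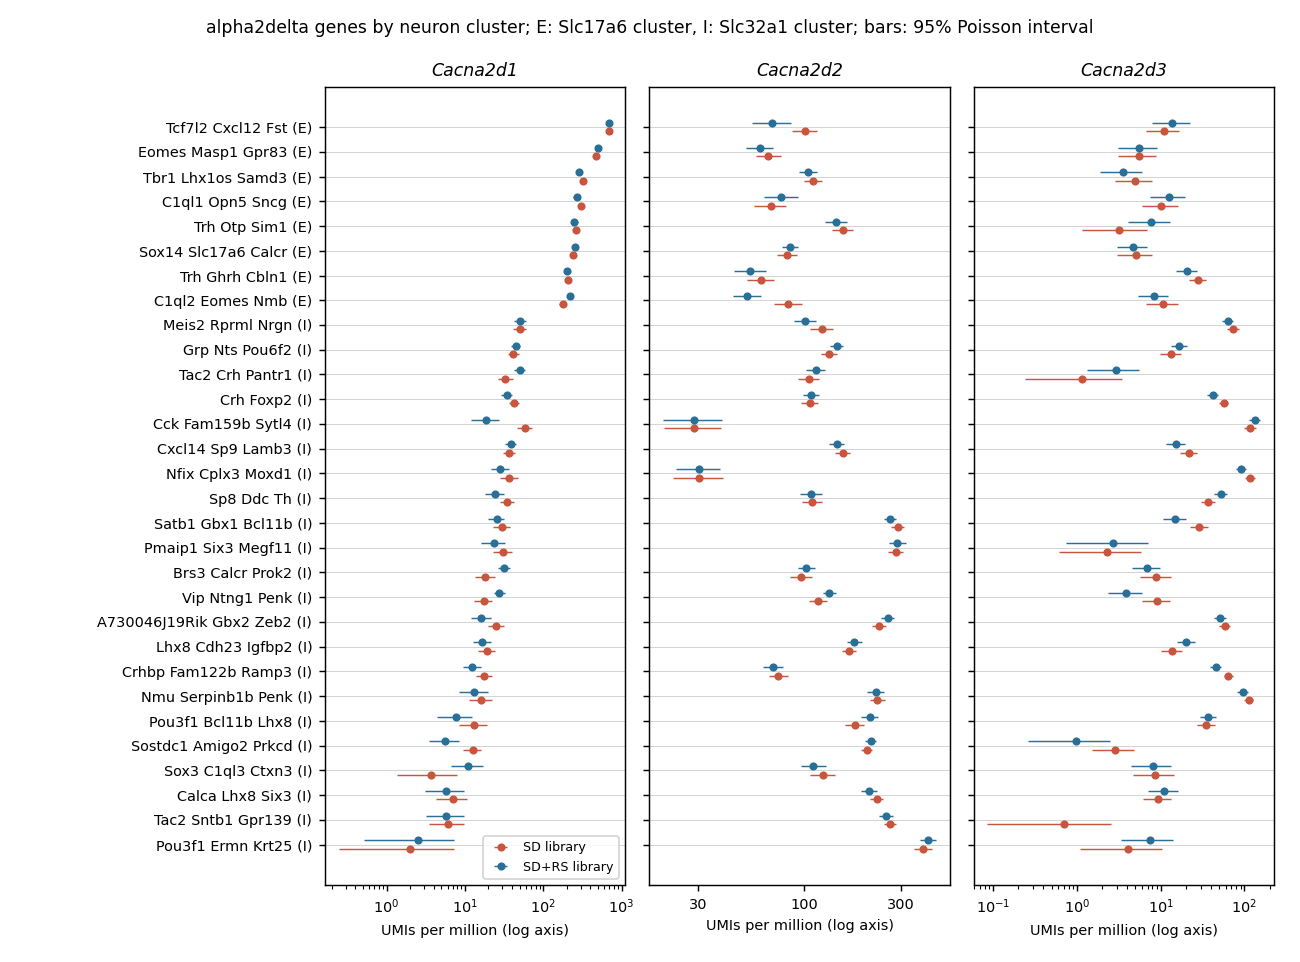
Levels of Cacna2d1, Cacna2d2 and Cacna2d3 (CPM, on a log scale) in each of the 30 described neuron clusters, in each library, with exact 95% Poisson intervals as bars, Slc17a6 clusters marked E and Slc32a1 clusters marked I, and no point where a library has 0 UMIs of the gene. All 8 Slc17a6 clusters lie at 177 or above for Cacna2d1 and all 22 Slc32a1 clusters at 58.3 or below.

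Summed over all 28 Slc32a1 clusters (2712 and 3093 cells) and all 12 Slc17a6 clusters (1028 and 1160 cells), 3 of 36 members tested differed by more than 2-fold in the same direction in both libraries. Cacna2d1 and Scn4b were higher in Slc17a6 neurons, as were 1.45% of all genes, and Cacna2d3 was higher in Slc32a1 neurons, as were 1.59%. Cacna2d1 was at 24.7 CPM (23.5 to 26.0) in Slc32a1 neurons and 316 CPM (309 to 323) in Slc17a6 neurons of the SD library, and at 24.4 and 292 in the SD+RS library, log2 ratios of Slc32a1 over Slc17a6 of −3.68 and −3.58. Cacna2d3 was at 34.0 against 9.47 CPM and 29.0 against 9.31, ratios of 1.85 and 1.64. Scn4b, a beta subunit gene, was at 1.03 against 2.57 CPM on 65 UMIs in each group of the SD library, and at 0.942 against 1.92 in the SD+RS library. The log2 ratios of Scn4b were −1.31 and −1.03. That of the SD+RS library fell short of the call at −0.92 with doublets kept and at −0.78 as a mean over cells. Split by sex calls, Scn4b was under the minimum of UMIs, at 0.70 and −1.46 with Xist UMIs only and at −2.11 and −0.54 with Y-linked UMIs only. The cluster led by Tbr1, Lhx1os and Samd3 held 42 and 46 of the Scn4b UMIs. Cacna2d2 stayed short of the call at 160 against 88.9 CPM and 156 against 80.1, ratios of 0.85 and 0.96. Scn9a (−0.57 and −0.56) and Cacng5 (−0.88 and −0.70) leaned to Slc17a6 neurons, and Cacnb4 (0.49 and 0.48) to Slc32a1 neurons.

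Among the calcium channel pore genes, the widest span was that of Cacna1e, the R-type channel. It was at 141 and 135 CPM in the Slc17a6 cluster led by Eomes, Masp1 and Gpr83 and at 10.3 and 4.53 CPM in the Gal Tac2 Cartpt cluster, an 18.1-fold span (13.2 to 25.5). The T-type genes had different top clusters. Cacna1g was highest in the cluster led by Trh, Otp and Sim1, at 61.1 and 50.6 CPM, and lowest in the Pou3f1 Ermn Krt25 cluster, at 9.09 and 6.62. Cacna1i was highest in that same Pou3f1 Ermn Krt25 cluster, at 125 and 115 CPM, 9.22-fold above the lowest (7.04 to 12.2). Cacna1h was highest in the Tcf7l2 Cxcl12 Fst cluster, at 36.9 and 35.8 CPM, an 11.2-fold span (6.01 to 23.0). Cacna1d, the low-threshold L-type pore, was highest in the cluster led by Trh, Ghrh and Cbln1, at 29.8 and 36.5 CPM, with 4 and 4 UMIs in the Pou3f1 Ermn Krt25 cluster. Cacna1a and Cacna1b, the pores of presynaptic release, spanned 1.93-fold and 1.88-fold.

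Sodium channel pores varied less, with exceptions. Scn2a spanned 1.63-fold (1.5 to 1.78), from 242 and 221 CPM in the cluster led by C1ql1, Opn5 and Sncg to 390 and 367 CPM in the Gal Tac2 Cartpt cluster. That same C1ql1 Opn5 Sncg cluster was the highest for Scn9a, at 192 (341 UMIs) and 203 CPM (293 UMIs), followed by the cluster led by Sox3, C1ql3 and Ctxn3 at 165 and 172, and the Pou3f1 Ermn Krt25 cluster was the lowest at 24.2 and 15.7. The span of Scn9a was 10.1-fold (7.399 to 14.1). Scn1a was high in 3 clusters that share the transcription factor genes Pou3f1 or Bcl11b among their leading genes, at 216 and 238 CPM in Pou3f1 Bcl11b Lhx8, 219 and 235 in Pou3f1 Ermn Krt25 and 240 and 199 in Satb1 Gbx1 Bcl11b. Their order differed between the libraries. Scn8a was also high in these 3 clusters, from 99.9 to 151 CPM, and highest in Satb1 Gbx1 Bcl11b in both libraries. Scn7a, a sodium-sensing channel gene, was highest in Nfix Cplx3 Moxd1 (18.98 and 17.9 CPM, a 40.5-fold span with 15.1 to 153, on 4 UMIs in the lowest cluster).

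The HCN and gamma genes also differed between clusters. Hcn2 was highest in the cluster led by Pmaip1, Six3 and Megf11 (77.0 and 80.7 CPM) and lowest in Eomes Masp1 Gpr83 (14.7 and 9.89). Hcn3 was highest in Pou3f1 Ermn Krt25, at 71.7 and 67.9 CPM. The Pmaip1 Six3 Megf11 cluster was also the top of Cacng5 (63.8 and 47.2 CPM on 112 and 69 UMIs), with 3 and 5 UMIs in its lowest cluster, a 61.9-fold span (30.8 to 146). Cacng3, a chaperone of AMPA receptors, was at 83.5 and 69.0 CPM in C1ql2 Eomes Nmb and at 5.13 and 2.73 in Pmaip1 Six3 Megf11, an 18.5-fold span (10.7 to 35.1). So this cluster was highest for Hcn2 and Cacng5 and lowest for Cacng3.

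Genes outside the families whose cluster levels were most like a member are given as descriptions over the 30 clusters, by Spearman correlation of the mean level. For Scn9a they were Cyp20a1 (0.84), Prdx1 (0.82), Irak1 (0.81), Ankrd54 (0.80) and 2210016F16Rik (0.80). For Cacna1g they were Ccdc85b (0.66), Chpf (0.63), Gbe1 (0.61), Uck2 (0.60) and Tpt1 (0.58). The clusters share libraries, depth and lineage, and the lists were picked as the highest of all genes.

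The cluster led by Tac2, Sntb1 and Gpr139 held 95 SD and 77 SD+RS cells. It is called the Gal Tac2 Cartpt cluster because the levels of the markers Tac2, Gal, Cartpt, Cbln2 and Amigo2, each relative to its highest cluster, had their highest mean there, though other clusters held the same 5 markers. The study looked for neurons active in rebound sleep, and the core activity genes of this cluster summed to 51.7 CPM after deprivation and 790 after recovery sleep. Some of its channel genes differed from those of other neurons in both libraries. Hcn3 was at 43.9 and 44.0 CPM, against 21.6 and 21.9 in other neurons (log2 ratios of 1.02 and 1.007), the 1 member of 32 tested that was more than 2-fold higher in both libraries, where 2.59% of all genes were. Of the same 32, 5 were more than 2-fold lower, where 6.44% of all genes were, and Cacna2d1, Cacna1e, Cacna2d3 and Cacng3 were among them. Cacna2d1 was at 6.02 and 5.76 CPM against 112 and 104 (−4.21 and −4.18), and Cacna1e at 10.3 and 4.53 against 74.9 and 68.5 (−2.87 and −3.92). The other neurons include the Slc17a6 clusters, which are high in Cacna2d1. This cluster is a Slc32a1 cluster, and all Slc32a1 clusters together were at 24.7 and 24.4 CPM of Cacna2d1. Cacna2d3 had 2 and 0 UMIs against 27.9 and 23.9 CPM, and Cacng3 was at 11.3 and 9.05 against 23.6 and 24.8. Cacna2d2 was at 264 and 253 CPM against 136 and 131 (0.96 and 0.95), and Cacng4, at 69.8 and 64.6, had its highest cluster here in both libraries. Scn3a was at 162 and 163 CPM here, below the Cck Fam159b Sytl4 cluster in the SD library (178) and the highest in the SD+RS library. Some of these levels were not particular to this cluster. The Sostdc1 Amigo2 Prkcd cluster, which shares Amigo2, Gpr139 and Reln among its leading genes, had Cacng3 at 8.90 and 8.95 CPM. Cacna2d1 was at 12.6 and 5.56 CPM there and Cacna2d2 at 203 and 212. Cacna1e, at 58.6 and 46.9 CPM, and Hcn3, at 26.1 and 26.9, were nearer to other neurons there.

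Between the libraries, 1 of 26 members tested in this cluster was past 1.5-fold upward (2.68% of all genes) and 1 downward (3.17%). Cacna1g fell from 51.4 CPM (145 UMIs) to 32.1 CPM (78 UMIs), a log2 ratio of −0.68 (−1.10 to −0.27). The ratio of Cacna1g was −0.73 over those of its cells that held Xist but no Y-linked UMIs, and −0.27, short of the call, over those that held Y-linked but no Xist UMIs. Hcn4 had 22 and 31 UMIs, 7.80 and 12.8 CPM, a ratio of 0.71 with an interval from −0.12 to 1.57 that includes 0. The ratio of Hcn4 was −0.26 over the cells with Y-linked but no Xist UMIs. These counts are small, and the counting interval of Hcn4 does not set the libraries apart. Cacna1e, with 29 and 11 UMIs, was under the minimum for a call. Among the channel partners, Rrad rose from 20.9 to 90.5 CPM (2.11) and Stac, whose protein binds L-type channels, from 11.7 to 29.2 CPM (1.32), while Fgf13, whose protein binds sodium channels, fell from 17.01 to 9.46 CPM (−0.85), 3 of 35 tested. In neurons as 1 class Rrad had a ratio of −0.33, and the difference between the cluster and the class was not tested.

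Over all described clusters, 882 pairs of member and cluster had at least 20 UMIs in each library, and 13 were past 1.5-fold upward and 30 downward, 4.88% in all, beside a median of 5.48% of all genes in a cluster. The members were thus called about as often as other genes. Cacna1g was lower past the call in 4 of 28 clusters and higher in 0, and Cacna1i lower in 3 of 30 and higher in 0. Cacna2d1 was higher in 3 and lower in 3 of 25. For 12 members tested in all 30 clusters, among them Scn2a, Cacnb4 and Cacng2, 0 passed in either direction. How many of all genes tested in all 30 clusters also had 0 calls was not counted, so this does not set these members apart.

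The authors' deposited table of markers, made over their own clusters, lists Cacna2d1 more often than any other member. In the authors' deposited table it was higher than in other cells in 12 clusters named e and lower in 19 clusters named i, with no cluster the other way. The authors' deposited table lists Cacna2d2 as lower in 6 e clusters, higher in 8 i clusters and lower in 4. For their cluster i2, the authors' deposited table gives Cacna2d2 in 98.2% of cells against 82.3% of the others, Cacna1e in 14.5% against 71.3%, Cacna2d1 in 12% against 46.3% and Cacna2d3 in 0.6% against 29.9%. The clusters of that table were made from the same cells by other steps, so they are no independent replicate.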

How the data were processed

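Per the file headers, Cell Ranger 3.0.2 wrote the deposited matrices, whose values are raw UMI counts. The build mm10 and Seurat 4.0.4 are named in the submitters' processing notes. The authors' deposited marker tables give an average difference as a log, closer to a natural log though its base is not stated, the share of cells with a gene as a fraction, and p-values over cells, per the file headers. Their p-values were not used, and their assignment of cells to clusters is not used here. Whether counting used strand is not stated in the labels, and 17 members, Cacna2d1, Cacna2d2 and Cacna2d3 among them, overlap a listed gene on the other strand. No value column was left without a sample (0).

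Barcodes under 500 genes or with 20% or more mitochondrial UMIs were dropped, leaving 9875 and 7709. Doublets were called with scrublet in scanpy 1.11.5 and removed, 580 (5.87%) and 297 (3.85%). Cells were clustered from 2000 variable genes, 40 components and 20 neighbours with the Leiden method of igraph 0.11.9. The resolution was 1 and, for neurons, 1.5, and the members and activity genes were left out. A class name needed 3 markers, each in 20% of cells, and no other class at 0.75 of its score, and these thresholds were set after seeing the data. Clusters of neurons with a low depth and no neuron marker among their leading genes stayed unnamed, and neuron clusters with markers of other classes were set aside (127 and 35 cells). Classes with at least 100 cells and neuron clusters with at least 50 cells in each library were described.

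UMIs were summed per class or cluster and scaled to CPM in Python 3.11.15 with numpy 2.4.6 and scipy 1.17.1. Levels have exact Poisson intervals, shares exact Clopper-Pearson intervals and ratios exact conditional binomial intervals, all at 95%. Molecules are not independent mice, so with 1 library per group no test was run. A member was called past 1.5-fold between libraries, with at least 50 UMIs in each (20 in small clusters), or past 2-fold in both libraries between neuron groups. Clusters were ranked within a gene, and 10-fold and median spans counted, on the mean of both libraries with a floor of 3 UMIs in each, and a span printed with an interval is the ratio of UMIs pooled over both libraries with no floor. The calculation of the ratios was checked on simulated Poisson counts with known folds. Those counts hold no variation between cells, mice or libraries, so the check says nothing about that spread. Named with values were the 12 members highest in neurons, the top members of other classes, those above neurons there, all called members, the 12 with the widest span, and the 5 genes most like Cacna1g and Scn9a. Some genes that these rules name are not reported here, though counts and sums over the members include them. The members, lists, rules and markers were chosen with earlier results of these data known. Gene positions come from GENCODE vM21 and promoters from RefSeq. Alternatives were doublets kept, other scalings, thinning to 2000 UMIs, each sex, other minimums and folds, resolution 1, deeper neurons only, neurons without the Gal Tac2 Cartpt cluster and, added after seeing the data, set-aside neurons kept and the shallow cluster added.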

Additional observations from a re-analysis of the deposited data

Results flagged for a closer look

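Cacna2d1 and Cacng3 passed the 1.5-fold call between the libraries upward in some neuron clusters and downward in others. The difference between the clusters was not tested, each cluster is 1 sample per library, and the counts are small. A median of 5.48% of all genes passed the call in a cluster. The share of all genes with calls in both directions was not counted. For Cacna2d1 the log2 ratio of SD+RS over SD was 0.67 in Vip Ntng1 Penk (56 and 142 UMIs), 0.62 in Tac2 Crh Pantr1 (84 and 155) and 0.79 in Brs3 Calcr Prok2 (47 and 124). It was −1.18 in Sostdc1 Amigo2 Prkcd (58 and 23 UMIs), −1.66 in Cck Fam159b Sytl4 (82 and 24) and −0.64 in A730046J19Rik Gbx2 Zeb2 (71 and 50). All 6 are Slc32a1 clusters, where Cacna2d1 is low. For Cacng3 the ratio was 1.43 in Nfix Cplx3 Moxd1 (20 and 68 UMIs) and −0.60 in Vip Ntng1 Penk (76 and 80).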

How the results depend on the processing

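No paired analysis was possible because each group was 1 library, and for the same reason no replicate could be left out. Of 126 values computed under alternatives, 105 stayed within their counting interval or within 1.5 times the count given. A count could stay so while the direction of its calls changed. In the Gal Tac2 Cartpt cluster, 1 member was higher and 1 lower as reported. With Xist UMIs only 0 were higher and 2 lower, and with Y-linked UMIs only 2 were higher and 0 lower. The count of members at least 2-fold above all other classes in neurons was 3 with doublets kept, in place of 14. Between the libraries in neurons, 2 members passed the lower fold tried, in place of 0 at 1.5-fold. In the other classes 0 passed a 2-fold call, and 10 of 51 pairs passed 1.5-fold with at least 20 UMIs, in place of 3 of 21. In the Gal Tac2 Cartpt cluster 8 passed that lower fold and 0 a 2-fold call, in place of 2. Between Slc32a1 and Slc17a6 clusters 1 passed a 4-fold call, in place of 3. The summed log2 ratio in neurons, −0.06 as reported, was −0.053 with thinned cells, −0.081 with Xist UMIs only, −0.025 with Y-linked UMIs only, −0.047 centred on all genes, −0.081 as a mean over cells and −0.11 with the shallow unnamed cluster added, an alternative chosen after seeing the data. With that cluster added, Cacna1g was at −0.45 and Cacna1h at −0.36. The ratio of Hcn4 in the Gal Tac2 Cartpt cluster changed sign, to −0.26, in cells with Y-linked UMIs only. For Cacna2d1 the mean of the ratios of Slc32a1 over Slc17a6 clusters was −3.63 as reported, −3.79 with Xist UMIs only and −3.76 with Y-linked UMIs only. The cause of these shifts was not tested. Depth limits the classes with few cells: 0 members reached the minimum in mural cells and 1 each in microglia and endothelial cells.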
